A study of Sus scrofa with 19 samples.

Results

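Genes of translation initiation and elongation were described in myocardium, labelled as left ventricular, of 19 pigs. The members were the genes whose symbol in the authors' gene table begins with EIF or EEF and a digit, apart from 2 symbols that were left out by name. They came to 59 of the 14744 genes of that table, 48 of them EIF genes and 11 EEF genes, and each was carried by its Ensembl identifier to the raw count files, which list 25879 genes. Every member had at least 12 counts in every library, and all 59 were among the 13552 genes tested. EIF5, EIF3C and other subunits outside the list were not analysed here.

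Translation of an mRNA begins when eIF2, loaded with GTP and the initiator tRNA, joins the small ribosomal subunit together with eIF1 and the many-subunit eIF3, and when the cap-binding eIF4F complex brings in the mRNA. After scanning to the start codon, eIF5B joins the large subunit, and eEF1A and eEF2 then drive elongation. Cells adjust the rate through kinases that phosphorylate eIF2 alpha or eEF2 and through 4E-binding proteins that hold back eIF4E. Adult heart muscle is known for using EEF1A2 beside the more widespread EEF1A1.

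The DOX group (n = 5) received doxorubicin and the MYO group (n = 5) its liposomal form Myocet, each as 60 mg/m2 body surface area in 3 cycles, and both were sampled at the anterior wall after 3 months. The RemoLV group (n = 3) had a coronary balloon occlusion of 90 min with reperfusion and was sampled at the remote posterior wall after 6 months. In the Hyper group (n = 3), a 9 mm aortic stent that became an isthmus stenosis as the animal grew loaded the ventricle for 6 months, and the Control group (n = 3) was followed for the same 6 months. The labels call the Control pigs sham-operated, whereas the study's methods describe untreated animals of like age for the sequencing. Hyper and Control were sampled at the anterior wall. All pigs were described as female large whites, and the treatment of the DOX and MYO groups was tied to a shorter follow-up. Each library stood for 1 pig. DOX and MYO differ in formulation and not in the drug, and both groups were ended early because of the animals' condition.

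The libraries held 9527710 to 20370209 counts. Names conflicted: of the 19 sample columns in the authors' table, 8 carried the name of another group than the count file that its values matched. The 3 columns named Control held the libraries labelled RemoLV and the reverse, and 1 DOX and 1 MYO library were exchanged. In what follows the groups carry the file labels, and the contrast of DOX and MYO with Hyper is given first because it holds the same libraries under both sets of names. Markers were checked as well. The summed level of 4 ventricular markers was 25019 to 29131 CPM in the libraries labelled RemoLV against 49995 to 74431 CPM in those labelled Control, and 4 of 4 were lower, with MYL2, the ventricular myosin light chain, at 18.6 to 115 CPM against 13577 to 18077 CPM. The summed atrial markers, 4 of which were found, were 9426 to 12703 CPM against 84.6 to 139 CPM, and all 4 were higher. These levels go against the labelled ventricular wall in the libraries labelled RemoLV. No marker of either list was at 0 throughout a group.

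Members differed strongly in base composition, and the stretches below show it. Each is the 60-base window with the most A inside a single coding exon, read 5′ to 3′ on the coding strand from RefSeq's Sscrofa11.1 genome, with A in capitals. The first 3 belong to the members richest in A among those that were lower in the DOX and MYO libraries. The last 2 belong to EIF3F, the member with the least A, and to the muscle elongation factor EEF1A2, which was also lower in these libraries than in Hyper.
EIF5B (chr3:54901943-54902002, minus strand): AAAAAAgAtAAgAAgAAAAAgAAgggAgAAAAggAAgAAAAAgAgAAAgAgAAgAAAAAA
EIF3J (chr1:127006664-127006723, minus strand): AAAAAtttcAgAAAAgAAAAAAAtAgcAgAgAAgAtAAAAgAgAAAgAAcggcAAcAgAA
EIF2S2 (chr17:37562943-37563002, minus strand): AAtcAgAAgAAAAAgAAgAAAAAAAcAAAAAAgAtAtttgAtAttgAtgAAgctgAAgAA
EIF3F (chr9:1292134-1292193, minus strand): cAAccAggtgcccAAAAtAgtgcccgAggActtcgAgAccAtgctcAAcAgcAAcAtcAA
EEF1A2 (chr17:62524623-62524682, minus strand): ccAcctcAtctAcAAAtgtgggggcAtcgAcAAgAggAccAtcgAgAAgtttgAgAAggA
In EIF5B the window lay in coding exon 5 of 24 and A made up 43 of its 60 bases (71.7%). The share was 63.3% in EIF3J (coding exon 4 of 8) and 60.0% in EIF2S2 (coding exon 3 of 9), against 35.0% in EIF3F and 33.3% in EEF1A2. Over the 55 members with a RefSeq transcript, the best window ranged from 30.0% to 71.7% A.

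In the libraries labelled DOX and MYO, the 3 subunits of eIF2, most of eIF3, eIF5B, eIF4B and 5 of 7 elongation factors were lower than in the Hyper libraries by the test. Of the 59 members, 26 were lower and 0 were higher in DOX and MYO vs Hyper at an edgeR adjusted p of at most 0.05, whereas 16.9% of all genes tested were lower and 15.8% were higher. The sign of the log2 fold change was negative in 46 members and positive in 13, and the median was -0.27 against 0.03 for all genes. In 20 members (33.9%) every DOX and MYO library was below every Hyper library, which held for 11.0% of all genes. Among the elongation factors this was so for EEF1B2 and EEF2. None of the 59 members reached the study's additional limit of 2 for the size of the log2 fold change, which 1.75% of all genes passed. The count of 26 ranged from 20 to 30 when single libraries were left out.

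**Figure D1:**
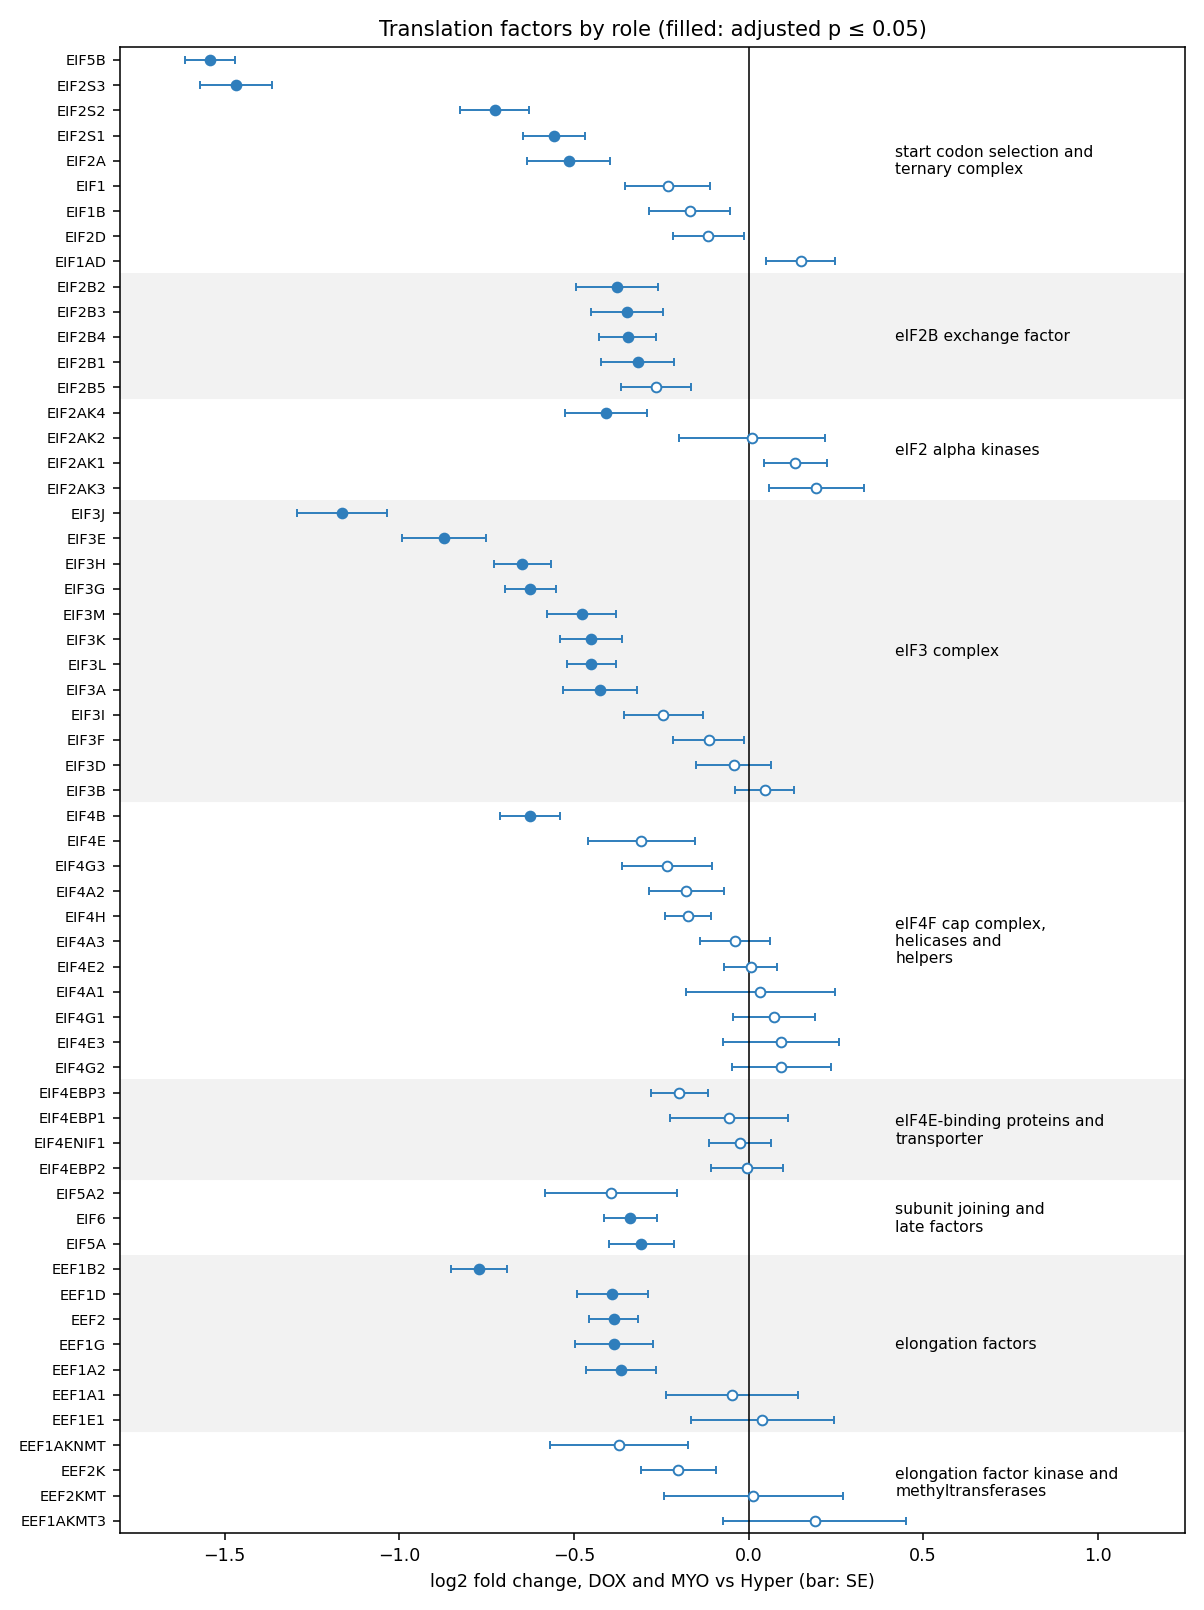
Log2 fold change (x axis, log2 units) of each of the 59 members in DOX and MYO vs Hyper, ordered within its role (y axis). Points are edgeR estimates with the SE, and filled points passed an adjusted p of 0.05. The 26 filled points all lie below 0, and EIF5B, at -1.54, lies lowest.

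In DOX and MYO vs Hyper, the lowest log2 fold change of any member belonged to start codon selection. EIF5B, the GTPase that joins the large ribosomal subunit, lies at chr3:54861759-54930826 of Sscrofa11.1. Its level was 75.1, 72.0, 75.7, 71.0 and 80.7 CPM in the DOX libraries, 73.5, 77.7, 67.6, 65.6 and 71.2 CPM in the MYO libraries, 57.4, 63.2 and 62.0 CPM in the RemoLV libraries, 218, 226 and 193 CPM in the Hyper libraries and 217, 199 and 236 CPM in the Control libraries. The 19 libraries thus formed a low set of 13 and a high set of 6 with no value in between, and RemoLV was the lowest group. The log2 fold change was -1.54 ± 0.07 (SE, edgeR adjusted p = 3.19e-11) in DOX and MYO vs Hyper. Against Control it was -1.54 ± 0.08 (SE, edgeR adjusted p = 5.08e-10) in DOX, -1.61 ± 0.08 (SE, edgeR adjusted p = 2.02e-10) in MYO and -1.84 ± 0.10 (SE, edgeR adjusted p = 9.25e-10) in RemoLV, while in Hyper it was -0.03 ± 0.10 (SE, edgeR adjusted p = 0.892) with a 95% interval from -0.23 to 0.17.

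EIF2S3, the gamma subunit of eIF2 that binds the initiator tRNA, is the 1 member on chromosome X among the 58 with coordinates (chrX:20129708-20162881). It stood at 51.2, 48.5, 45.5, 46.4 and 57.5 CPM in DOX, 56.6, 49.6, 48.5, 51.2 and 50.9 CPM in MYO, 104, 90.5 and 104 CPM in RemoLV, 172, 134 and 113 CPM in Hyper and 130.0, 172 and 152 CPM in Control. The 10 DOX and MYO libraries lay below all others, and, unlike EIF5B, the RemoLV libraries took a middle place that overlapped with none of the other groups. The log2 fold change was -1.47 ± 0.10 (SE, edgeR adjusted p = 1.03e-08) in DOX and MYO vs Hyper and -0.60 ± 0.14 (SE, edgeR adjusted p = 0.00169) in RemoLV vs Control. In the same libraries DDX3Y, a Y-linked RNA helicase, had 1143 to 2831 counts in DOX and MYO, and 0 to 2 counts in the 9 others, although the pigs were described as female. Its part in the result for EIF2S3 was not tested, and sex, follow-up and treatment cannot be told apart in this contrast.

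The other eIF2 subunits were lower too. EIF2S2, the beta subunit, was at 97.4, 86.8, 86.7, 77.4 and 91.7 CPM in DOX, 110.4, 101, 94.2, 90.0 and 93.8 CPM in MYO, 84.0, 85.2 and 74.9 CPM in RemoLV, 164, 156 and 141 CPM in Hyper and 196, 157 and 234 CPM in Control. Again the 13 DOX, MYO and RemoLV libraries lay below the 6 others, with a log2 fold change of -0.73 ± 0.10 (SE, edgeR adjusted p = 3.06e-05) in DOX and MYO vs Hyper. EIF2S1, the alpha subunit that the stress kinases phosphorylate, ranged from 45.0 to 54.3 CPM in DOX and MYO and from 64.9 to 88.6 CPM in Hyper, and its log2 fold change was -0.56 ± 0.09 (SE, edgeR adjusted p = 1.31e-04). EIF2A, an alternative carrier of the initiator tRNA, was lower as well, at -0.52 ± 0.12 (SE, edgeR adjusted p = 0.00296), and at -0.30 (edgeR adjusted p = 0.0186) with the GC correction described with base composition. The remaining 4 of the 9 members of this role, EIF1, EIF1B, EIF1AD and EIF2D, did not pass the test, with log2 fold changes of -0.23, -0.17, 0.15 and -0.12.

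**Figure D2:**
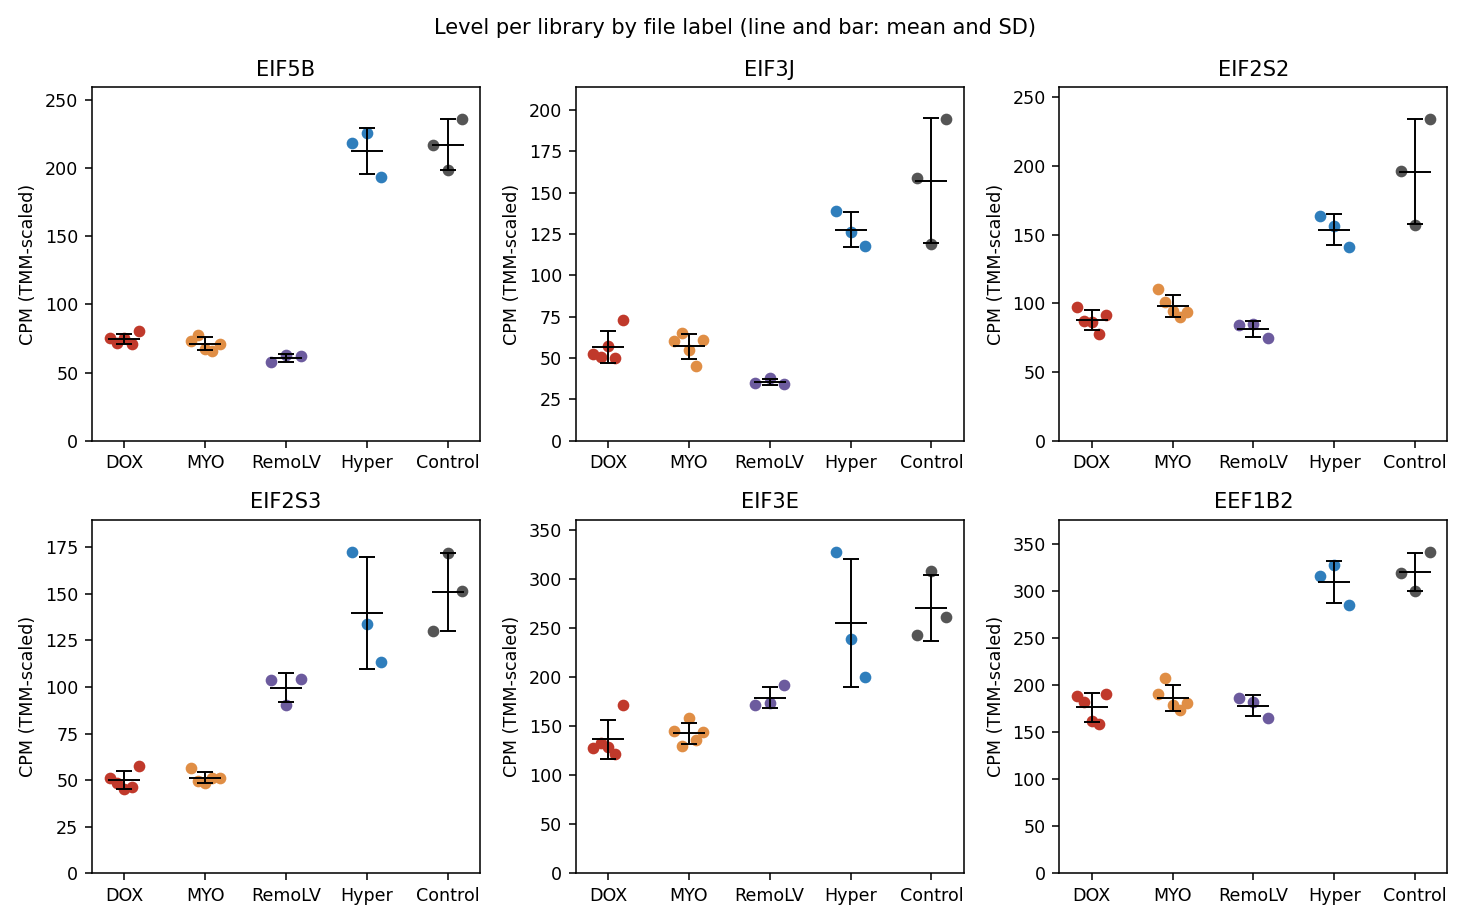
Level of 6 members (y axis, TMM-scaled CPM from 0) in each of the 19 libraries by file label (x axis), with the group mean and SD. In EIF5B, EIF3J, EIF2S2 and EEF1B2 the DOX, MYO and RemoLV libraries lie below the Hyper and Control libraries, and in EIF2S3 the RemoLV libraries, at 90.5 to 104 CPM, lie between.

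The exchange factor eIF2B recharges eIF2 with GTP. In DOX and MYO vs Hyper, 4 of its 5 subunits were lower, with log2 fold changes of -0.38 for EIF2B2, -0.35 for EIF2B3, -0.35 for EIF2B4 and -0.32 for EIF2B1, and the catalytic subunit EIF2B5 missed the threshold at -0.27 ± 0.10 (SE, edgeR adjusted p = 0.0515) but passed with the GC correction, at -0.32 (edgeR adjusted p = 0.0296), as EIF2B1, EIF2B2 and EIF2B3 did. EIF2B4 had no GC value. With the replicate number as a block, EIF2B1 and EIF2B3 missed the threshold (edgeR adjusted p = 0.0619 and 0.0562). Of the 4 kinases of eIF2 alpha, EIF2AK4 (GCN2), which senses uncharged tRNA, was the 1 that was lower, at -0.41 ± 0.12 (SE, edgeR adjusted p = 0.0128). Its level was 22.8 to 34.5 CPM in DOX and MYO and 44.0, 42.5 and 29.8 CPM in Hyper, so that 1 Hyper library lay within the range of the treated pigs. EIF2AK1 (HRI), the heme-regulated kinase, EIF2AK2 (PKR), which binds double-stranded RNA, and EIF2AK3 (PERK), the kinase of the endoplasmic reticulum, had log2 fold changes of 0.13, 0.01 and 0.19, with 95% intervals from -0.06 to 0.32, -0.43 to 0.45 and -0.09 to 0.48.

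Of the 12 eIF3 subunits, 8 were lower and 4 did not pass the test in DOX and MYO vs Hyper. When each library was corrected for its trend with the GC content of transcripts, a step described with base composition, all 11 subunits with a GC value were lower. EIF3J, a loosely bound subunit at the decoding site, was at 52.2, 50.7, 57.3, 49.9 and 73.3 CPM in DOX, 60.1, 64.9, 55.1, 44.9 and 60.7 CPM in MYO, 34.8, 37.7 and 34.1 CPM in RemoLV, 139, 126 and 118 CPM in Hyper and 159, 119 and 194 CPM in Control. The RemoLV libraries were the lowest and the Hyper and Control libraries did not overlap with the rest. The log2 fold change was -1.16 ± 0.13 (SE, edgeR adjusted p = 3.03e-06) in DOX and MYO vs Hyper and -2.14 ± 0.18 (SE, edgeR adjusted p = 9.12e-08) in RemoLV vs Control, where EIF3J was the 1 member beyond the limit of 2, as 2.22% of all genes were. EIF3E, a subunit of the octamer core, was at 128, 133, 128, 122 and 172 CPM in DOX, 145, 129.6, 158, 136 and 144 CPM in MYO, 172, 174 and 191 CPM in RemoLV, 327, 239 and 199.9 CPM in Hyper and 242, 308 and 262 CPM in Control. Its highest DOX library came up to the lowest RemoLV library but stayed below Hyper, with a log2 fold change of -0.87 ± 0.12 (SE, edgeR adjusted p = 3.67e-05).

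The other lower subunits were EIF3H (-0.65), EIF3G (-0.62), EIF3M (-0.48), EIF3K (-0.45), EIF3L (-0.45) and the large scaffold EIF3A (-0.42), all log2 fold changes in DOX and MYO vs Hyper. EIF3B, a scaffold of the complex, EIF3D, a subunit that can bind the cap, and EIF3F were at 0.05, -0.04 and -0.11, and EIF3I was at -0.24. The estimates thus ran from -1.16 for EIF3J to 0.05 for EIF3B. With the GC correction, EIF3F was at -0.60 (edgeR adjusted p = 1.22e-05), EIF3D at -0.27 (edgeR adjusted p = 0.0290) and EIF3I at -0.34 (edgeR adjusted p = 0.0242), so that these 3 subunits passed, while EIF3J was at -0.96 and EIF3M at -0.25. EIF3B had no GC value.

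In the cap-binding eIF4F group, 1 of 11 members was lower in DOX and MYO vs Hyper. That was EIF4B, the partner of the helicase, at 379.5 to 475 CPM against 737, 603 and 564 CPM, with a log2 fold change of -0.63 ± 0.09 (SE, edgeR adjusted p = 3.14e-05). EIF4E, the cap-binding protein, was at -0.31 ± 0.15 (SE, edgeR adjusted p = 0.133), and EIF4G1, the scaffold, at 0.07 ± 0.12 (SE, edgeR adjusted p = 0.662). The helicases EIF4A1, EIF4A2 and EIF4A3 were at 0.03, -0.18 and -0.04, none of which passed the test. The 4 binding proteins and transporters of eIF4E did not pass it either: EIF4EBP1, EIF4EBP2, EIF4EBP3 and EIF4ENIF1 had log2 fold changes between -0.198 and -0.00469. With the GC correction, EIF4EBP3 was lower, at -0.47 (edgeR adjusted p = 0.00104), and EIF4EBP1, at -0.46 (edgeR adjusted p = 0.0534), missed the threshold. EIF4H, a helper of the helicase, was likewise lower with the correction alone, at -0.20 (edgeR adjusted p = 0.0208). EIF4E2, EIF4G2 and EIF4G3 did not pass the test, and were at -0.03, 0.28 and -0.19 with the correction. Against Control, EIF4G3 was lower in DOX and in MYO, at -0.56 and -0.66 with the correction, and did not pass in RemoLV.

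EIF4E carried a wide spread among the Control libraries. It was at 121, 74.9 and 158 CPM in Control, 82.7, 78.6 and 65.0 CPM in Hyper, 60.8, 50.7, 56.9, 60.3 and 64.2 CPM in DOX, 61.9, 78.6, 62.9, 55.1 and 58.5 CPM in MYO and 49.5, 47.0 and 40.6 CPM in RemoLV. The lowest Control library lay inside the range of Hyper and MYO, and the RemoLV libraries were the lowest. Against Control the log2 fold change was -1.01 ± 0.17 (SE, edgeR adjusted p = 1.93e-04) in DOX, -0.89 ± 0.17 (SE, edgeR adjusted p = 5.20e-04) in MYO and -1.37 ± 0.20 (SE, edgeR adjusted p = 3.04e-05) in RemoLV. After correction for GC content it was -0.47 in MYO, with an edgeR adjusted p = 0.0691, which no longer passed. In DOX it passed with the correction but not with the correction and the replicate block together, at -0.62 (edgeR adjusted p = 0.0581).

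Among the 7 elongation factors, 5 were lower in DOX and MYO vs Hyper. EEF1B2, a nucleotide exchange subunit of eEF1A, was at 188, 182, 161, 159 and 190.2 CPM in DOX, 190.3, 207, 178, 173 and 180.2 CPM in MYO, 186, 182 and 165 CPM in RemoLV, 315, 328 and 284 CPM in Hyper and 319, 300.1 and 341 CPM in Control. The 13 lower libraries and the 6 of Hyper and Control did not overlap, and the log2 fold change was -0.77 ± 0.08 (SE, edgeR adjusted p = 1.27e-06). EEF2, the translocase, ranged over 1669 to 1855 CPM in DOX, 1647 to 1864 CPM in MYO, 1682 to 1876 CPM in RemoLV, 2232 to 2385 CPM in Hyper and 2337 to 2459 CPM in Control. The same 13 libraries lay below the 6 others, and the log2 fold change was -0.39 ± 0.07 (SE, edgeR adjusted p = 4.93e-04). EEF1D and EEF1G, the other exchange subunits, had log2 fold changes of -0.39 and -0.38, which the GC correction moved to -0.999 and -0.57. For EEF1D the correction used the transcript with the longest coding sequence (1914 bases), at 69.44% GC, and other transcripts were not tried. EEF1G missed the threshold with the replicate number as a block (edgeR adjusted p = 0.0712). EEF1A2 was lower as well, at -0.37, and at -0.84 with the GC correction. EEF1E1, which binds aminoacyl-tRNA synthetases, was at 0.04 without passing the test.

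EEF2K, the kinase that stops eEF2, ranged over 86.3 to 129 CPM in DOX, 94.6 to 115 CPM in MYO, 96.0 to 111 CPM in RemoLV, 116 to 120.2 CPM in Hyper and 91.3 to 112 CPM in Control. The Hyper range overlapped with that of DOX and lay above the 3 others, but EEF2K passed the test in none of the 6 comparisons in the fit without a replicate block. EIF5A, the factor that carries hypusine, was lower at -0.31 ± 0.09 (SE, edgeR adjusted p = 0.0170) in DOX and MYO vs Hyper. With the replicate number as a block it missed the threshold (edgeR adjusted p = 0.0523). EIF6, which keeps the ribosomal subunits apart, was lower too, at -0.34 ± 0.08 (SE, edgeR adjusted p = 0.00260), which the GC correction moved to -0.58 (edgeR adjusted p = 1.62e-05). EIF5A2 had a log2 fold change of -0.39 and did not pass the test.

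The genes for elongation factor 1 alpha stood apart in the RemoLV libraries. EEF1A1 was at 4058, 3932 and 4367 CPM in RemoLV, 1889.8, 1417 and 1752 CPM in Hyper, 1572, 1997 and 1240.5 CPM in Control, 2436, 2186, 1596, 1199.7 and 1287 CPM in DOX and 1647, 1758, 1197, 1401 and 1645 CPM in MYO. EEF1A2 was at 1129, 1291 and 1169.8 CPM in RemoLV, 2057, 2466 and 2571 CPM in Hyper, 2424, 2062 and 2161 CPM in Control, 1724, 1934, 1906, 1849 and 1899 CPM in DOX and 1940.0, 2093, 1723, 1445 and 1849 CPM in MYO. EEF1A1 was thus highest and EEF1A2 lowest in each of the 3 RemoLV libraries, with no overlap with the 16 others. In RemoLV vs Control the log2 fold change of EEF1A1 was 1.36 ± 0.24 (SE, edgeR adjusted p = 1.85e-04) and that of EEF1A2 -0.89 ± 0.13 (SE, edgeR adjusted p = 3.09e-05), which the GC correction moved to -1.38. The ratio of EEF1A2 to EEF1A1 counts was 0.291 ± 0.0324 (SD, n = 3) in RemoLV, 1.44 ± 0.366 (SD, n = 3) in Control, 1.43 ± 0.327 (SD, n = 3) in Hyper, 1.16 ± 0.363 (SD, n = 5) in DOX and 1.19 ± 0.151 (SD, n = 5) in MYO.

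The coding sequences of both genes share 78.7% of 1392 aligned bases, so that some reads could fit both genes. How the counting treated reads that fit both genes was not tested. In the same 3 RemoLV libraries the summed fibroblast markers, 3 of 5 of them higher, reached 8798 to 10059 CPM against 1725 to 2937 CPM in Control, beside the atrial markers given above, and the part of these cells in the ratio was not tested. In bulk tissue, fewer cells of a type and less RNA per cell cannot be told apart.

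**Figure D3:**
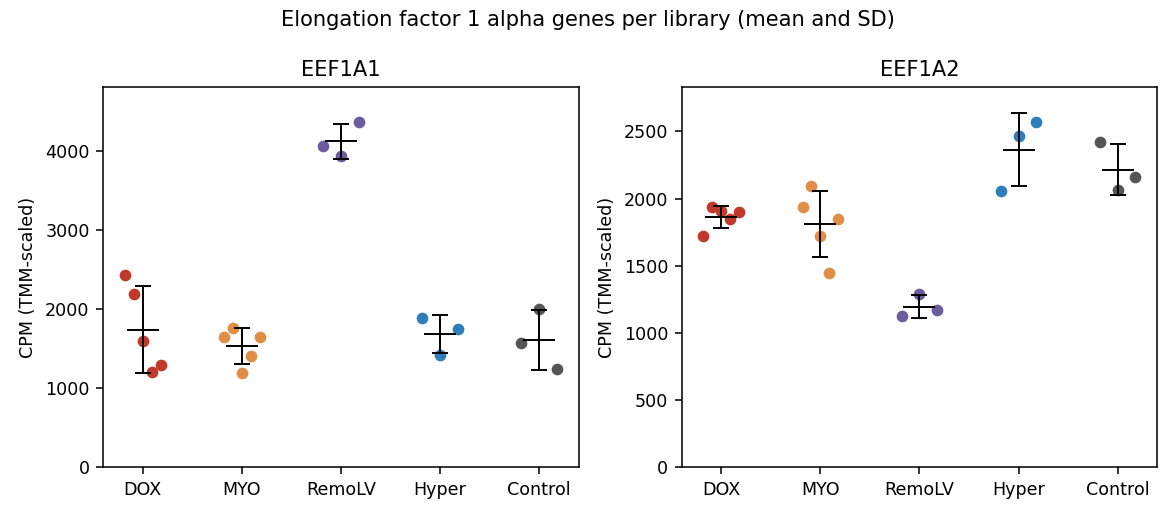
Level of EEF1A1 and EEF1A2 (y axis, TMM-scaled CPM from 0) in each library by file label (x axis), with the group mean and SD. The 3 libraries labelled RemoLV lie above the 16 others for EEF1A1, at 3932 to 4367 CPM, and below them for EEF1A2, at 1129 to 1291 CPM.

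Against Control, the comparison the study was built on, members of the same roles were lower under the file labels. In DOX vs Control 28 of 59 members were lower and 1 was higher, where 21.1% of all genes were lower and 21.0% higher. In MYO vs Control 33 were lower and 1 was higher, beside 21.7% and 20.7% of all genes. In RemoLV vs Control 34 were lower and 3 were higher, beside 24.0% and 23.1%. Of the members, 26 in DOX, 24 in MYO and 32 in RemoLV lay below Control without overlap between libraries, beside 17.3%, 18.7% and 25.7% of all genes. These comparisons share the Control libraries, and the names of the authors' table exchange them with RemoLV, so that most directions depend on the names. With the table names, 5 of the 29 members called in DOX kept their direction and call and 8 were called the other way. In MYO these were 4 and 9 of 34, and in RemoLV 0 and 37 of 37. Under those names 14 members were higher and 9 lower in DOX vs Control, beside 15.0% and 14.6% of all genes, and 11 and 6 in MYO, beside 14.8% and 14.4%. In RemoLV 34 were higher and 4 lower, beside 24.0% and 23.2%, and in Hyper 26 and 2, beside 18.7% and 17.2%. Libraries of DOX and Control with the same number had correlated deviations, at 0.117 to 0.242 in 3 of 3 pairs. Same-numbered pairs went down to -0.246 for MYO and Control and to -0.203 for Hyper and Control. Pairs of unlike number were not examined, so these values do not show a pairing. With the replicate number as a block, 24 members were lower and 0 higher in DOX vs Control, beside 17.9% and 17.5% of all genes in that fit, and the calls of EEF2KMT (edgeR adjusted p = 0.0528) and EIF5A (edgeR adjusted p = 0.0865) were lost, as were those of EIF1B, EIF2B3 and EIF3K.

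By role and file label, the ternary complex group had 7 of 9 members lower in each of DOX, MYO and RemoLV. The eIF3 complex had 8, 9 and 10 of 12 lower in DOX, MYO and RemoLV, and the eIF4F group 5, 6 and 6 of 11. Of the elongation factors 3, 4 and 6 of 7 were lower. With the GC correction, described with base composition, the ternary complex group had 6, 6 and 8 of 9 lower, the eIF3 complex 10, 10 and 11 of 11, the eIF4F group 4, 3 and 6 of 10 with 1 higher in each, and the elongation factors 6, 5 and 6 of 7. EEF1A2 then went from -0.25 to -0.86 (edgeR adjusted p = 3.58e-05) in DOX. Among the eIF2 alpha kinases EIF2AK4 was lower in DOX, at -0.49 ± 0.13 (SE, edgeR adjusted p = 0.00679), and in MYO, at -0.65 ± 0.13 (SE, edgeR adjusted p = 8.41e-04), but no kinase passed the test in RemoLV, where EIF2AK4 was at -0.02. With the GC correction EIF2AK1 passed there, at -0.48 (edgeR adjusted p = 0.00252) against -0.22 without it, and its 3 RemoLV libraries lay below Control. The members that were higher were few. EEF2KMT, a methyltransferase of eEF2, had a log2 fold change of 0.80 ± 0.30 (SE, edgeR adjusted p = 0.0398) in DOX, 1.05 ± 0.30 (SE, edgeR adjusted p = 0.00981) in MYO and 1.60 ± 0.33 (SE, edgeR adjusted p = 6.42e-04) in RemoLV. It was at 0.896, 1.48 and 0.917 CPM in Control and at no more than 4.10 CPM in any library, and its call in DOX was lost under DESeq2, among other settings. After the GC correction it passed neither in DOX, at 0.48 (edgeR adjusted p = 0.204), nor in MYO, at 0.71 (edgeR adjusted p = 0.0683), but remained higher in RemoLV, at 1.33 (edgeR adjusted p = 0.00167). EIF4E3, a cap-binding relative of eIF4E, was higher in RemoLV at 0.80 ± 0.21 (SE, edgeR adjusted p = 0.00387), along with EEF1A1. With the GC correction EIF4E3 was the 1 member higher in DOX, at 0.41 (edgeR adjusted p = 0.0432) against 0.13 without it, and in MYO, at 0.43 (edgeR adjusted p = 0.0373) against 0.08.

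**Figure D4:**
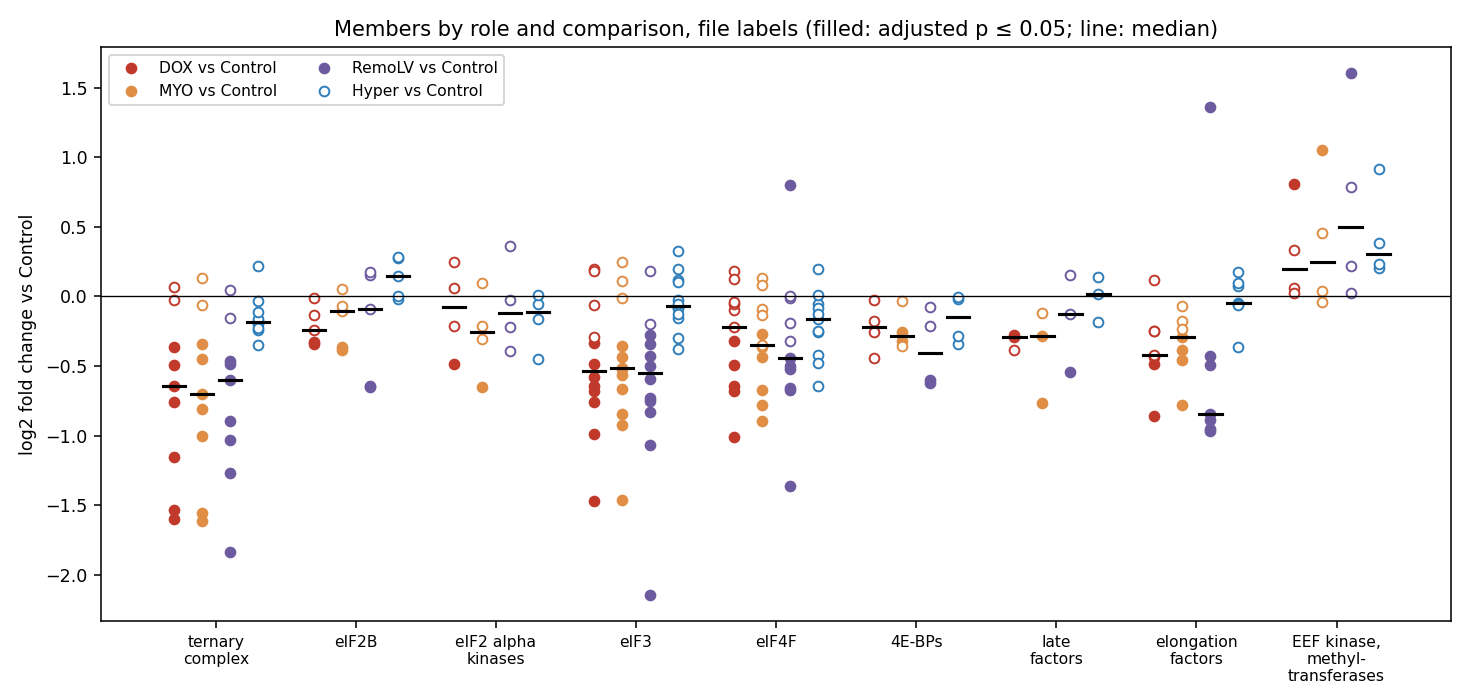
Log2 fold change vs Control (y axis, log2 units) of the 59 members in DOX, MYO, RemoLV and Hyper by role (x axis) under the file labels, with filled points for an edgeR adjusted p of at most 0.05 and a line at each median. In the ternary complex, eIF3 and elongation groups the DOX, MYO and RemoLV points lie mostly below 0, while no Hyper point is filled.

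Between Hyper and Control no member was called under the file labels. None of the 59 members passed the adjusted test in edgeR or in DESeq2, as none of the 13552 genes did in edgeR (0.0%), and 10 members (16.9%) had an unadjusted p under 0.05, beside 17.8% of all genes. The median log2 fold change was -0.05 over the members. The estimates ran from -0.64 for EIF4E to 0.91 for EEF2KMT, and the lowest edgeR adjusted p of any member was 0.140. Those for EIF3J and EIF3E were -0.30 and -0.08 with 95% intervals from -0.66 to 0.05 and from -0.41 to 0.25. Without Control replicate 2, 8 members were lower and 3 were higher in Hyper, beside 9.08% and 9.32% of all genes. Without Hyper replicate 1, 1 was lower and 2 were higher, beside 3.21% and 2.39%, so that the count of 0 rests on these libraries.

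The free and the liposomal form of the drug were compared at the same dose and follow-up. None of the 59 members (0.0% of all genes) passed the adjusted test in DOX vs MYO in edgeR or in DESeq2, and 2 members (3.39%) had an unadjusted p under 0.05, beside 7.08% of all genes. The estimates ran from -0.25 for EEF2KMT to 0.46 for EIF2AK2, whose 95% interval went from 0.04 to 0.88. For EIF5B the difference was 0.07 with an interval from -0.08 to 0.23, for EIF2S3 -0.04 with an interval from -0.27 to 0.18 and for EEF1A1 0.19 with an interval from -0.20 to 0.57. The median half-width of the intervals was 0.22, which bounds what these 10 libraries could show.

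Base composition moved with the differences. Over 11957 genes with a RefSeq transcript, the Spearman correlation of the log2 fold change in DOX and MYO vs Hyper with the share of A in the coding sequence was -0.46, and over the 55 members it was -0.342. Both describe genes that share the same libraries. Within single libraries, the correlation of a library's centred log2 level with transcript GC was 0.162 to 0.331 in DOX, 0.33 to 0.456 in MYO, -0.0531 to -0.00598 in RemoLV, -0.609 to 0.0521 in Hyper and -0.541 to -0.252 in Control. The members lower in DOX and MYO vs Hyper had a median of 28.38% A (n = 24), the other members 26.64% (n = 31) and all genes 24.63%. EIF5B (38.14%), EIF3J (38.04%) and EIF2S2 (37.03%) exceeded at least 98.5% of all genes. EIF2AK2, next in order with 36.56% A, had a log2 fold change of 0.01 and did not pass the test. EIF3F, with the least A (17.43%), was at -0.11 before the correction for GC content.

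Members were also set against genes of like composition. Of the 55 members, 41 lay below the median log2 fold change of the genes in their own decile of A content, and the median difference was -0.205. When each library was corrected for its trend with transcript GC, 30 of 55 members were lower and 0 higher in DOX and MYO vs Hyper, beside 16.8% and 9.18% of all genes in the corrected fit, including the 24 that could be tested of the 26 found without the correction. EIF5B then had a log2 fold change of -1.34, EIF2S3 -1.31, EIF3J -0.96, EIF2S2 -0.54 and EEF1B2 -0.73. For EIF2S1 the value shrank to -0.29, and for EEF1A2 it grew to -0.84, for EEF1D to -0.999 and for EIF3F to -0.60. Against Control the correction gave 32 lower and 1 higher in DOX (20.3% and 11.7% of all genes), 30 and 1 in MYO (18.4% and 10.4%) and 38 and 3 in RemoLV (29.8% and 18.8%). In DOX, 9 members gained a call, EIF3F, EIF3I, EIF4EBP1, EIF4EBP3, EIF4E3, EIF4G1, EEF1A2, EEF1D and EEF1E1, and EEF2KMT, EIF1B and EIF4A2 lost theirs. With the replicate block in the same corrected fit, 29 were lower and 0 higher in DOX (16.1% and 8.73% of all genes), and EIF4E, EIF4E3, EIF4G1 and EEF1E1 did not pass. In MYO, EIF3F, EIF4E3, EIF4EBP1, EIF4G1, EIF6 and EEF1D gained a call and 7 lost theirs, EEF2KMT, EIF1B, EIF4A2, EIF4E, EIF4EBP2, EIF4G2 and EIF5A2. In RemoLV EIF1AD, EIF2AK1, EIF3D, EIF3F, EIF4ENIF1, EIF4G1 and EIF6 gained a call. EIF3F turned from 0.18 to -0.44 in DOX, from 0.25 to -0.43 in MYO and from 0.19 to -0.32 in RemoLV, and passed in each with the correction.

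**Figure D5:**
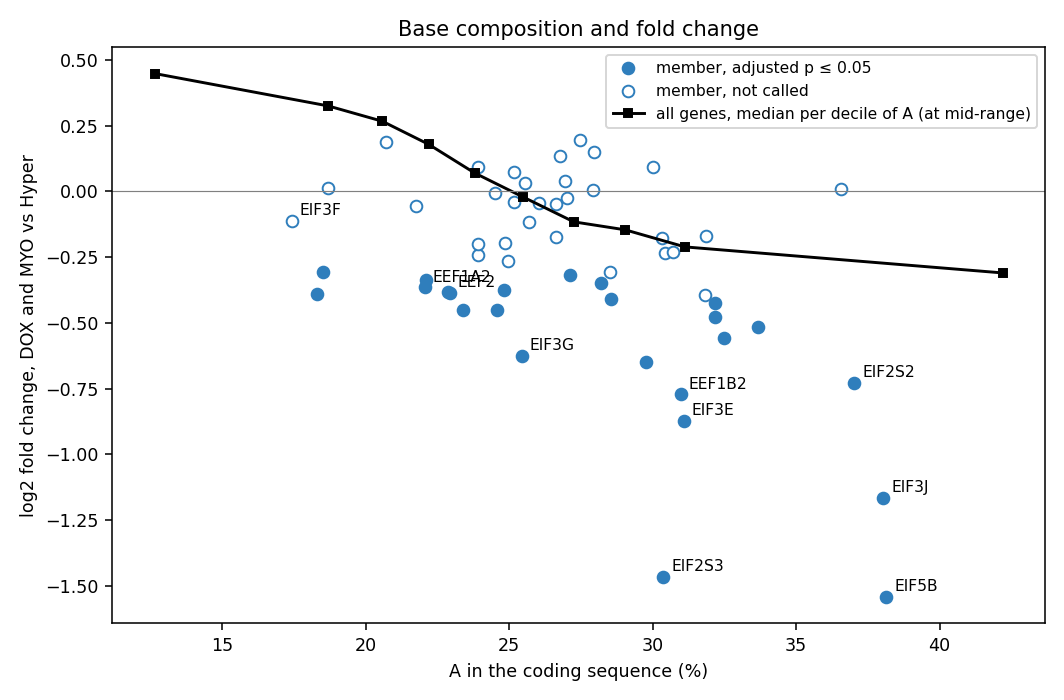
Log2 fold change in DOX and MYO vs Hyper (y axis, log2 units) against the share of A in the coding sequence (x axis, %) for 55 members, with the median of all genes in each decile of A content at the middle of its range. Most members lie below the line of medians, and EIF5B, EIF3J and EIF2S2, each above 37% A, lie below it.

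Other genes of the pathway were counted from fixed lists in the same fit, where 16.9% of all genes were lower and 15.8% were higher. Of 15 poly(A)-binding, scanning, termination and recycling factors tested, 8 were lower and 0 higher in DOX and MYO vs Hyper, with a median log2 fold change of -0.37. The lowest were DHX29 (-1.17), a helicase that helps scanning through structured leaders, and TPT1 (-0.71). DHPS, which begins the hypusine modification of eIF5A, was at -0.63 and the poly(A)-binding protein PABPC1 at -0.37, both of which passed. Of 18 regulators of mTORC1 and eIF4, 7 were lower and 3 higher, the latter a share near that of all genes. DDIT4, an inhibitor of mTORC1 that stress induces, was lowest (-0.81), followed by CYFIP1 (-0.60), which binds eIF4E, and LARP1 (0.69) and RPTOR (0.40) were highest. Of 8 integrated stress response regulators, 1 was higher, the chaperone HSPA5 (0.70), and 0 were lower, counts no larger than the shares of all genes give for a list of this length. ATF4, the transcription factor that phosphorylated eIF2 alpha induces, was at 0.36 and did not pass the test.

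Markers of other cells moved in the same comparisons. In DOX and MYO vs Hyper 2 of 5 fibroblast markers were higher, with sums of 3977 to 5794 CPM in DOX, 3861 to 5437 CPM in MYO and 1319.6 to 3245 CPM in Hyper, and 2 of 4 proliferation markers were higher, with sums of 20.4 to 46.5, 14.2 to 24.5 and 7.63 to 15.2 CPM. Of 4 markers of all cardiomyocytes, 2 were lower, with sums of 15262 to 22578, 16574 to 20528 and 21041 to 25589 CPM. Endothelial markers were higher in 2 of 4, smooth muscle markers in 1 of 4 and ventricular markers in 1 of 4. Of 5 macrophage and leukocyte markers 2 were higher and 1 was lower, of 2 skeletal muscle markers tested CKM was lower, and of 2 blood markers none passed. Of 4 atrial markers, 2 were higher, with sums of 1106 to 2404, 759.7 to 1239 and 193 to 1251 CPM. Against Control, 3 of 4 markers of all cardiomyocytes were lower in each of DOX, MYO and RemoLV, and 1 was higher in DOX and in RemoLV, with sums of 19430.4 to 20919 CPM in RemoLV and 19269 to 25689.6 CPM in Control. Of 5 fibroblast markers, 2 were higher in DOX, 2 in MYO, where 1 was lower, and 3 in RemoLV, and of 4 proliferation markers 2 were higher in each, with sums of 7.13 to 44.4 CPM in RemoLV and 9.38 to 9.73 CPM in Control. Of 5 macrophage and leukocyte markers 3, 1 and 2 were higher in DOX, MYO and RemoLV and 1 was lower in each, with sums of 114 to 253, 111 to 192 and 115 to 149.6 CPM against 148 to 195 CPM. Both blood markers were lower in DOX and RemoLV, with sums of 8.403 to 112 and 10.1 to 41.5 CPM against 36.2 to 350.1 CPM, and neither passed in MYO. Endothelial markers were lower in 1 of 4 in DOX, where 1 was higher, and in 2 of 4 in RemoLV, atrial markers were higher in 2 of 4 in DOX and MYO, ventricular markers in 1 of 4 in both, and CKM was lower in DOX, MYO and RemoLV. The smooth muscle markers did not pass. Apart from TNNT3 of the skeletal muscle list in RemoLV, no marker was at 0 throughout a group, and their part in the results was not tested.

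Per length, 4 of the 7 elongation factors led the 55 members with a RefSeq length, which leave out EIF4B, EIF3B, EIF2B4 and EEF1AKNMT. Averaged over the 19 libraries, EEF1A1 had 1010.1 ± 492 CPM per kilobase of exon (SD, n = 19), EEF1A2 956 ± 207, EEF1G 639 ± 153 and EEF2 556 ± 82.6. EIF1, the start codon selector, was the leading initiation factor among these, at 485 ± 119, followed by the helicase EIF4A2 at 214 ± 38.5. The other elongation factors lay lower, with EEF1B2 at 204 ± 60.4, EEF1D at 60.8 ± 10.7 and EEF1E1 at 3.78 ± 1.05. EEF1A1 led through the RemoLV libraries, at 2049 ± 112 against 609 ± 43.0 for EEF1A2. In the other 4 groups the mean of EEF1A2 was the higher one, at 947 ± 42.4 against 866 ± 273 in DOX, 921 ± 124 against 761 ± 113 in MYO, 1203 ± 138 against 839 ± 121 in Hyper and 1127 ± 95.1 against 798 ± 189 in Control (SD, CPM per kilobase). Lengths were those of RefSeq exons and not of the Ensembl models used for counting.

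Across the 5 groups together, 38 of 59 members (64.4%) passed the edgeR test, close to the 63.3% of all genes. The lowest adjusted p-values were those of EIF5B, EIF2S3, EIF3J, EEF1B2, EIF2S2 and EIF3G, in this order. At the other end, 15 members (25.4%) were called in no pairwise comparison, beside 30.2% of all genes.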

How the data were processed

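Poly(A)-selected, directional RNA-seq libraries of 19 pigs were analysed. The authors aligned the reads with STAR to Sscrofa11.1 and counted reads per Ensembl gene and strand with HTSeq 0.11.1, and these raw counts were used as deposited. The deposited table of the authors' comparisons holds log2 fold changes and p-values, which were not used, and normalised values per sample on a log2 scale, used to match sample names and symbols. Groups follow the labels of the count files.

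Genes with enough counts by edgeR's filterByExpr were kept. Counts were scaled by TMM and tested with edgeR's quasi-likelihood test (edgeR 4.0.16, R 4.3.3) in 1 fit over the 5 groups, with Benjamini-Hochberg adjustment over 13552 genes and a threshold of 0.05. CPM values are TMM-scaled. Intervals are at 95%. Alternatives were DESeq2 1.42.0, other filters, a fit of only the groups compared, libraries left out, table names, a replicate block and, chosen after seeing the data, a loess correction per library for transcript GC (span 0.3), without and with the replicate block. The correction took the GC of the transcript with the longest coding sequence of each gene. Named members were 12 chosen for their role, the 12 with the largest F, and the 3 called furthest each way in a comparison. Levels per library are printed for some of them, and others have a range or an estimate alone. Most other members are named with an estimate or a range in the account of their role, or where the GC correction or the block changed a call. For EIF4E2, EIF4G2 and EIF4G3 only corrected estimates are given, and none is given for EEF1AKNMT. The members and all lists were chosen with earlier results of these data known. Counts were also simulated with the same mean per gene in all groups, apart from a small set of genes changed in a single group. For DOX vs Control, 98.6% of genes changed by 2 on the log2 scale were recovered, 73% at 1 and 13.8% at 0.5, with 2 false calls among 13286 genes. For RemoLV vs Control the shares were 97.7%, 61.1% and 15.3%, with 8 false calls among 13298 genes. The simulated counts held no trend with GC and far fewer changed genes than were called in the real libraries. These shares and false calls therefore do not carry over to the real comparisons. Same-numbered libraries were checked for shared deviations from their group means. The correlation was over 0.1 in every pair for DOX and Control (0.117 to 0.242) and in 1 of the 29 pairs of other groups. The lowest was -0.246. Any pairing would come from these values and not from the labels, and pairs of unlike number were not examined.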

Additional observations from a re-analysis of the deposited data

Results flagged for a closer look

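In 50 sets of 5 values, 4 had a library far from the rest by Dixon's gap, where chance gives about 1 in 20 for a single set. The sets were the named members and the EEF1A2 to EEF1A1 ratio in DOX and in MYO. They share the same libraries, so the 4 are not set against that rate. DOX replicate 5 stood high for EIF3E (172 CPM) and for EIF4B (475 CPM). DOX replicate 2 stood high for EEF2KMT (2.46 CPM), and DOX replicate 1 stood apart for EIF4EBP1 (12.2 CPM).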

How the results depend on the processing

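The calls depended most on the sample names. With the names of the authors' table, 14 members were higher and 9 lower in DOX vs Control, 11 and 6 in MYO, 34 and 4 in RemoLV and 26 and 2 in Hyper, while the 26 lower members of DOX and MYO vs Hyper were the same genes. The ratio of EEF1A2 to EEF1A1 counts became 1.44 in RemoLV and 0.291 in Control. Of 71 named log2 fold changes 42 reversed. In RemoLV vs Control these were EEF1A1 -1.36, EEF1A2 0.89, EEF1B2 0.85, EEF2 0.43, EEF2KMT -1.60, EIF2S1 0.89, EIF2S2 1.27, EIF2S3 0.60, EIF3A 1.07, EIF3E 0.60, EIF3G 0.83, EIF3H 0.75, EIF3J 2.14, EIF3L 0.27, EIF4B 0.52, EIF4E 1.37, EIF4E3 -0.80, EIF4EBP1 0.60, EIF5A 0.54 and EIF5B 1.84. In DOX vs Control they were EEF2KMT -0.77, EIF2S1 0.16, EIF2S2 0.17, EIF3A 0.31, EIF3G 0.28, EIF3H 0.0402, EIF3J 0.60, EIF4E 0.35, EIF5A 0.28 and EIF5B 0.27. In MYO vs Control they were EEF1A2 0.59, EEF1B2 0.0646, EEF2KMT -0.58, EIF2S1 0.0559, EIF2S2 0.21, EIF3A 0.22, EIF3G 0.37, EIF3H 0.12, EIF3J 0.75, EIF4E 0.48, EIF5A 0.22 and EIF5B 0.25. The exchange of libraries between names is the whole of this alternative. The 1 higher member in DOX became 0 under the DESeq2 test, with no filter, with only the groups compared and with a replicate block, alone or with the GC correction, and the 1 in MYO became 0 with both. With both, EIF3A missed the threshold in DOX and MYO vs Hyper, at -0.29. The deviations of same-numbered libraries correlated over 0.1 in 3 of 3 pairs of DOX and Control and in 1 of the 29 pairs of other groups. These values do not show a pairing. With the replicate block 0 members were higher and 24 lower in DOX, 1 and 25 in MYO (17.3% and 18.1% of all genes), 4 and 34 in RemoLV (22.2% and 22.8%), 0 and 0 in Hyper (0.0% each) and 0 and 23 in DOX and MYO vs Hyper (12.8% and 13.8%). In the last, EIF2B1, EIF2B3, EEF1G and EIF5A missed the threshold and EEF2K passed, at -0.30 (edgeR adjusted p = 0.0449). In MYO the block ended the calls of EIF1B, EIF3K, EIF4G2, EIF4EBP2, EIF4EBP3, EIF5A, EEF1A2 and EEF1G, and in RemoLV EEF1AKMT3 gained one, at 0.80 (edgeR adjusted p = 0.0490). Leaving out single libraries gave 0 to 2 higher and 24 to 33 lower in DOX, 0 to 2 and 23 to 35 in MYO, 3 to 5 and 29 to 38 in RemoLV, 0 to 3 and 0 to 8 in Hyper, and 0 to 1 and 20 to 30 in DOX and MYO vs Hyper. Hyper vs Control had 3 higher and 8 lower without Control replicate 2, and 2 higher and 1 lower without Hyper replicate 1. RemoLV reached 5 higher without Control replicate 2. Across the 5 groups 34 to 46 members passed. The ratio of EEF1A2 to EEF1A1 counts lay at 1.29 to 1.64 in Control, 1.07 to 1.27 in DOX, 1.28 to 1.60 in Hyper, 1.13 to 1.23 in MYO and 0.273 to 0.303 in RemoLV. With 3 libraries in 3 of the groups, small differences were hard to detect, and a call that was missed does not show that levels were equal.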
